A study of Mus musculus with 12 samples.

Results

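Fip200 KO and control 562 vascular tumor cells were compared across all genes by RNA-sequencing. All 6 libraries of the 2 groups, of 12 libraries in the series, were taken by their labels, 3 from control and 3 from Fip200 KO cells, and the table of this comparison lists 14851 genes. 562 cells are a spontaneously immortalized line of 1 origin, grown out of cutaneous tumors of Tsc1 f/f;Scl-Cre mice on a C57BL/6 background, so that the controls, labelled wildtype, lack Tsc1 as the KO cells do. Scl-Cre, activated by tamoxifen, deletes floxed genes in endothelial cells. In the study's methods the KO cells were made with lentiviral CRISPR-Cas9 and puromycin selection, and the controls received an sgRNA against EGFP. The study worked with a pair of Fip200 KO clones, and the labels do not say from which of them each library came. The labels give no time, dose or age for the cultures.

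FIP200, the product of Rb1cc1, is the scaffold of the ULK1 kinase complex, which starts the formation of autophagosomes. These membranes take up cargo bound by receptors such as p62 and deliver it to lysosomes, and the ATG5 and ATG7 proteins act later, in the attachment of LC3-family proteins to the membrane. TSC1 restrains the mTORC1 kinase, a driver of cell growth, which is active in cells that lack it. The comparison asks what else changes in the RNA of such tumor cells when the scaffold is removed.

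The promoters of 4 genes that fell in Fip200 KO cells are shown first, as examples from the lysosomal, interferon and antigen presentation genes described below. How typical they are of those genes was not tested. Each is the stretch of 250 bases before the gene's start in RefSeq (GRCm38.p6), written 5′ to 3′ on the strand of the gene. Capitals mark CACGTG, the core of the sites that TFEB-type factors bind, and the ISRE motif, a form of the interferon-stimulated response element spelled here as GAAA, any 2 bases and GAAA, on either strand. The Lamp1 stretch is chr8:13158911-13159160, plus strand, that of Isg15 is chr4:156200819-156201068, minus strand, that of Oas3 is chr5:120777660-120777909, minus strand, and that of Tap1 is chr17:34187306-34187555, plus strand.
Lamp1: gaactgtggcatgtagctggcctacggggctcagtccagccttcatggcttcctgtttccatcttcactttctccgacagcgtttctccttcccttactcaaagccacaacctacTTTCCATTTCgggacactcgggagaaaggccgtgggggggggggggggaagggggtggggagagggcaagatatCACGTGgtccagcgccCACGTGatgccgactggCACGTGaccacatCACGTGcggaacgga
Isg15: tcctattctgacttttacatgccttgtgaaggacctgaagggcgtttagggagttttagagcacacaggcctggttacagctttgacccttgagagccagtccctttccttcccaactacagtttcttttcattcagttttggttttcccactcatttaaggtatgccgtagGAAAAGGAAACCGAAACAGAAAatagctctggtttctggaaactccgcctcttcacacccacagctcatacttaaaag
Oas3: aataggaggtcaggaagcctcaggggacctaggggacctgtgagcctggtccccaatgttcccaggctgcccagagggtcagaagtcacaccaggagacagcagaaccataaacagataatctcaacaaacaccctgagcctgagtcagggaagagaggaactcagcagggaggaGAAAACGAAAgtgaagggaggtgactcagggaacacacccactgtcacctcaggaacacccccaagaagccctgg
Tap1: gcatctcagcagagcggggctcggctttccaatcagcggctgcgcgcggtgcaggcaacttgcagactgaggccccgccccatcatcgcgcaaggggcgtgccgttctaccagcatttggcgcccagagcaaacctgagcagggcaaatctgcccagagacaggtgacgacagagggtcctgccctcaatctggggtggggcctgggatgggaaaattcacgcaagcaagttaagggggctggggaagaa

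The Lamp1 stretch holds CACGTG 4 times, with first bases 61, 45, 28 and 15 before the start, and the ISRE motif once on the other strand, 135 before it. Windows of 300 bases, from 250 before to 50 after the start, were given for 9370 of 11803 tested genes, and 5 of these genes (0.0534%) hold CACGTG at least 4 times in a window. In the Isg15 stretch 3 overlapping copies of the ISRE motif begin 78, 72 and 66 bases before the start, a number that 2 of the 9370 genes (0.0213%) reach. Oas3 holds 1 copy, 75 bases before its start. Neither motif is in the Tap1 stretch, which also serves Psmb9: the 2 genes point away from each other, their starts lie 226 bases apart, and their windows share 275 of 300 bases. Of 7 motifs searched on both strands in the windows, the ISRE motif was in 7.5% of the 146 called lower genes with a window against 3.6% of all tested genes, TGANTCA in 11.6% against 6.1%, and TATAAA in 13.0% against 8.3%. The shares for CACGTG (13.0% against 12.1%), TGACGTCA (5.5% against 3.7%), TTCNNNGAA (6.2% against 8.2%) and TGACNNNGC (17.1% against 16.9%) were closer. Among the 30 called higher genes with a window, TGANTCA was in 16.7%, TATAAA in 13.3%, CACGTG in 13.3% and the ISRE motif in 0.0%, so that TGANTCA and TATAAA were no rarer there than in the lower genes. Of the 6 called lower genes of the MHC class I presentation list, 5 had a window and 0 held the ISRE motif. No test was run on these shares.

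Between 18960455 and 23629730 reads per library stood behind the deposited RPKM values, which are reads scaled to the length of the gene and to the total of the library. Of 22 endothelial markers, Pecam1 was at an RPKM of 265 to 539 over the 6 libraries, Cdh5 at 116 to 457 and Emcn at 476 to 1327. Sox17 of the same list was below 0.5 in every library, and 20 of the 22 were tested. The 22 markers summed to 1988 to 4995 in control and 3196 to 4284 in KO libraries. The label names lymphatic endothelial cells, yet Prox1, the transcription factor that defines them, was at an RPKM of 0.0366 to 1.35, while Lyve1 stood at 60.6 to 393 and Flt4 at 31.7 to 94.2. Of 7 leukocyte markers, Ptprc, Csf1r, Adgre1 and Cd79a were below 0.5 in every library, while Lyz2 was at 19.3, 2.88 and 26.4 in control and 2.05, 0.282 and 3.32 in KO libraries, Fcer1g was at 0.450 to 1.59, and Cd68 was higher. The list summed to 53.4 to 113 in control and 20.7 to 266 in KO libraries. Summed over 16 fibroblast and pericyte markers the RPKM was 25.96, 227 and 48.7 in control and 294, 273 and 26.4 in KO libraries. Most of it was Col3a1 and Dcn in control replicates 2 and 3, and Thy1 in KO replicates 1 and 2. Fewer cells of a type and less RNA per cell cannot be told apart in such bulk libraries. Of the defining markers, Col1a1, Col1a2, Rgs5 and Postn were below 0.5 in all 6 libraries. Of 6 epithelial markers, Krt8, Cldn4 and Cldn7 were below 0.5 throughout, while Krt18 was at 6.17 to 10.6 in control and 0.216 to 5.89 in KO libraries and Krt19 at 5.76 to 7.77 in control and 1.03, 21.4 and 5.51 in KO libraries. Their sum was 13.9 to 18.1 in control and 1.89 to 27.9 in KO libraries.

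Rb1cc1, the targeted gene, had RPKM values of 6.43, 8.28 and 7.73 in control and 5.18, 6.84 and 2.06 in KO cells. KO replicate 2 lay within the control range and KO replicate 3 was lowest. The difference, on the scale of log2(RPKM + 0.5) as for all fold changes here, was −0.74 (SE 0.401, adjusted p = 0.404 by limma) and −0.30 without KO replicate 3. A small deletion or insertion in an exon can leave the RNA in place, so these values do not check the label.

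The 3 Fip200 KO libraries differed more among themselves than the control libraries did. Over the 11803 tested genes, the SD of log2(RPKM + 0.5) between replicates had a median of 0.217 in control and of 0.403 in Fip200 KO cells, and it was larger in KO cells for 8810 genes (74.6%). The SD exceeded 1 for 297 genes in control and for 968 in KO cells. KO replicates 1 and 2 were closest to each other, with a median SD of 0.269 over that pair, against 0.395 for replicates 1 and 3 and 0.327 for replicates 2 and 3. Between KO replicates 1 and 3, 3061 genes (25.9%) differed by at least 1 on the log2 scale, while the pairs of a control with a KO library differed at 1347 to 3161 genes.

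**Figure D1:**
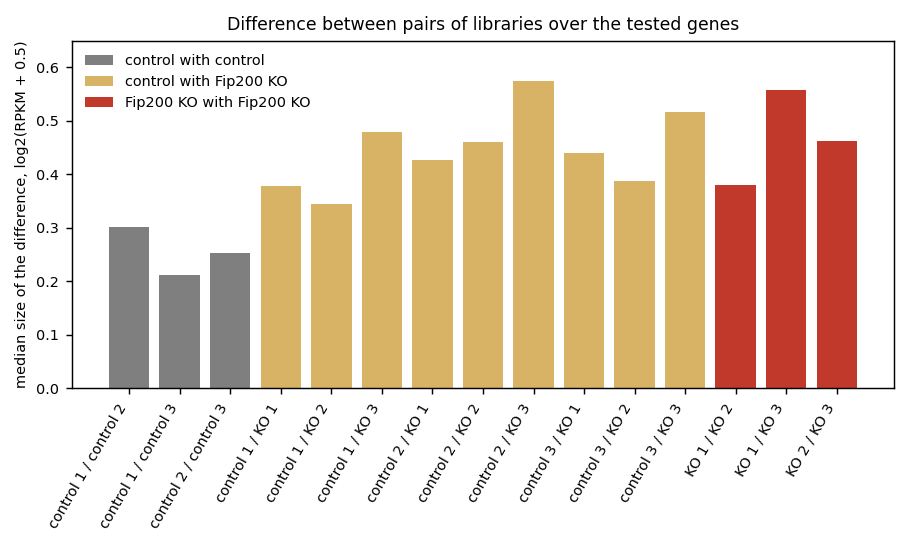
Median size of the difference in log2(RPKM + 0.5) over 11803 tested genes for each pair of the 6 libraries, with grey bars for control pairs, tan bars for control with Fip200 KO and red bars for Fip200 KO pairs. Control pairs reach 0.301 at most, while the pair of KO replicates 1 and 3 stands at 0.558, near the largest control with KO difference of 0.575.

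Each KO library had genes of its own. Among 10586 genes that reached an RPKM of 2 in a KO library, KO replicate 3 lay more than 1 log2 above both other KO libraries for 694 and below both for 649. KO replicate 1 did so for 444 and 225 genes and KO replicate 2 for 179 and 147. The same counts for single control libraries, among 10475 genes, were 31 to 196 above and 43 to 184 below.

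KO replicate 3 lacked several RNAs that the other KO libraries held at high levels. Thy1, a surface glycoprotein, had an RPKM of 288 and 229 in KO replicates 1 and 2 and of 0.21 in replicate 3, with 2.36 to 17.8 in control. Prdx4, a peroxiredoxin of the endoplasmic reticulum, stood at 78.4 and 60.7 in KO replicates 1 and 2, at 90.2 to 111 in control and at 0.186 in replicate 3. Hsd11b1, which makes active glucocorticoid, stood at 156, 36.9 and 0.497 in the KO libraries in order of replicate and at 64.5 to 97.8 in control. The unnamed transcript 3110039M20Rik showed the Thy1 pattern (58.4, 73.2 and 0.0534), and the predicted gene Gm5886 stood at 108, 78.8 and 0.986 in KO and at 27.0 to 1188 in control libraries. In the other direction, Esm1, an endothelial proteoglycan, was at 256 in KO replicate 3 against 1.73 and 1.18 in the others and 12.6 to 73.6 in control. Kit, the receptor for stem cell factor, was at 27.8 against 0.12 and 0.76, with 1.69 to 9.20 in control. Gkap1, a binding partner of a cGMP-dependent kinase, kept the control level in KO replicate 3 (15.2, control 14.4 to 15.6) and was at 0.166 and 0.0654 in replicates 1 and 2. Rnpepl1, of a family of aminopeptidases, was at 12.3 in replicate 3 and at most 0.0654 in the others. None of these genes passed the test, with adjusted p between 0.266 and 0.811.

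KO replicate 1 stood apart by Serpina3n, a protease inhibitor (19.99, and 0 in both others, with 0.127, 15.4 and 6.02 in control). Ms4a4d (29.2 and 0 in both others, 0 to 1.35 in control) and the tachykinin gene Tac4 (30.3, 0.637 and 0.146, 1.49 to 3.85 in control) were highest in that library too. Cd68, a lysosomal protein used as a macrophage marker, was also at 263 there against 19.1 and 15.9, with 34.4 to 91.7 in control, while Ptprc, Csf1r and Adgre1 stayed below 0.5. KO replicate 2 stood apart by Col3a1, a fibrillar collagen (34.3 against 1.64 and 1.55, with 2.82 to 143 in control). It also did so by Foxc2, a transcription factor of lymphatic vessels (9.30 against 0.296 and 0.301). Foxc2 was steady at 14.96 to 15.9 in control. Its KO mean was lower (log2 fold change −3.11, SE 0.917), but with replicate 2 between the groups it did not pass (adjusted p = 0.182).

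Against this spread, 193 genes were called lower and 41 higher in Fip200 KO cells, a call being an adjusted p that did not exceed 0.1 together with a log2 fold change of 1 or more in size. These are 1.64% and 0.347% of the tested genes, and 1.98% in either direction. Over all tested genes the log2 fold changes centred on 0.02, with 48.8% below 0. In none of the 234 called genes did the groups overlap, which held for 24.1% of all tested genes. The exact permutation p of such a gene is 0.1, the smallest that 3 against 3 libraries allow. The call rests on both groups: without control replicate 2 or 3 no gene was called by limma (1103 and 913 genes at an unadjusted p under 0.05), without control replicate 1 there were 58 lower and 31 higher, without KO replicate 2 there were 40 lower and 1 higher, and without KO replicate 3 there were 429 and 169. Without KO replicate 1, 128 were lower and 15 higher.

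The library names carry a prefix, FY or JG, whose meaning the labels do not give. Control replicate 1 shares FY with all KO libraries, and the other control libraries carry JG. Between control replicate 1 and the KO mean, the 193 lower genes had a median difference of −1.74 and the 41 higher genes one of 1.39, against −1.99 and 1.87 with control replicate 2. Control replicate 1 was the control library nearest to the KO libraries for 101 of the lower and 33 of the higher genes. With the prefix as a term in the fit, 0 genes were called by limma and 533 had an unadjusted p under 0.05. Prefix and genotype cannot be told apart beyond this 1 library.

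The deepest losses were of genes of varied function. Cck, the precursor of the peptide hormone cholecystokinin, had RPKM values of 59.6, 611 and 271 in control and 0.827, 0 and 14.6 in KO libraries (log2 fold change −6.64, SE 1.32, adjusted p = 0.0867). Npy, neuropeptide Y, had 16.3, 11.8 and 26.4 in control and no more than 0.179 in KO libraries, 3 reads or fewer in each, and was at least 70.2-fold lower against a floor of 3 reads per library. Vip, the vasoactive intestinal peptide, fell from between 5.51 and 7.59 in control to between 0.157 and 0.369 (−3.13, adjusted p = 0.00854). These were 3 of the 7 tested neuropeptide and secretory granule genes, of which none was called higher and whose median log2 fold change was −1.64. The other 8 of the 15 genes listed did not pass the filter on low values, which 3 high control libraries suffice to pass, and over all 15 without the filter the median was −0.02 with 2 genes called lower. With any 1 control library left out, Npy and Vip no longer passed the filter, since all their KO values are below it. They could thus not be called whatever their difference. Of the 5 genes then tested, 0 were called by limma. Cpe, which trims peptide hormones, had 629 to 787 in control and 158, 391 and 191 in KO libraries, with an adjusted p of 0.101.

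Mme, the cell surface peptidase neprilysin, had the smallest adjusted p of the comparison (0.00395). Its RPKM values were 18.8, 13.8 and 17.0 in control and 0.253, 0.249 and 0.0214 in KO cells, a log2 fold change of −4.67 (SE 0.268). Slc6a12, a betaine and GABA transporter, fell from between 10.1 and 20.8 to at most 0.409. Tspan17, a tetraspanin, was at 10.4 to 22.1 in control and at 0, 0 and 0.439 in KO cells. Foxq1, a forkhead transcription factor, was at 3.44 to 9.89 in control and at no more than 3 reads in each KO library, at least 129.5-fold lower. Twist2, a factor of mesenchymal cells, was at 7.03, 62.7 and 27.4 in control and at most 0.149 in KO cells (−5.40, adjusted p = 0.0363). Serpine2, an inhibitor of thrombin and plasminogen activators, was at 28.5, 331 and 148 in control and at 2.70, 8.51 and 1.24 in KO cells. For Cck, Twist2, Serpine2 and Tspan17 control replicate 1 was the lowest and replicate 2 the highest control library, the order that the fibroblast genes Col3a1 (2.82, 143 and 23.1) and Dcn (0.125, 56.9 and 15.3) also had, and the part of such cells in these differences was not tested. Mme, Npy, Slc6a12 and Foxq1 did not follow that order.

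Igf2r, which brings lysosomal enzymes and IGF2 to lysosomes, fell from 10.7, 28.3 and 19.2 to 0.695, 0.501 and 0.0459 (−4.42, SE 0.441, adjusted p = 0.0192). Its control libraries stood in the order of the fibroblast genes above. Cdkn1c, an inhibitor of cyclin-dependent kinases, fell from 92.3, 37.5 and 47.7 to 0.411, 4.29 and 1.24 (−4.82, SE 0.618). Igf2r and Cdkn1c are imprinted genes that are expressed from the maternal copy. Sgce, an imprinted sarcoglycan gene expressed from the paternal copy, rose from 3.62, 0.421 and 0.0265 to 13.2, 9.70 and 17.6 (3.43, SE 0.712, adjusted p = 0.0931). No other of the 11 tested imprinted genes passed the test. Mest, also paternal, had 20.5, 1.95 and 0.116 in control and 54.2 to 86.7 in KO cells, without overlap and with an adjusted p of 0.144.

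**Figure D2:**
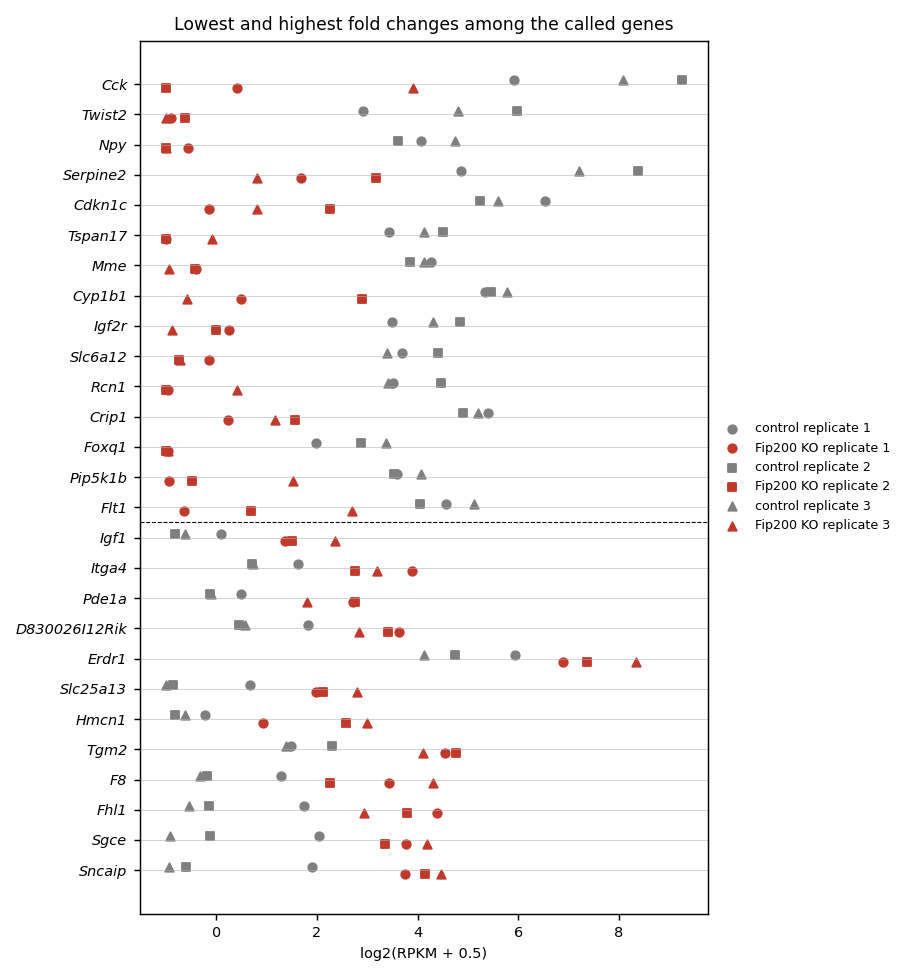
log2(RPKM + 0.5) in each library for the 15 called genes that fell most and, below the dashed line, the 12 that rose most, taken from those with no overlap of the groups and a mean RPKM of 2 or more in the higher one. Grey symbols are control and red symbols Fip200 KO libraries, with the shape giving the replicate. In the upper part every red symbol lies left of every grey one, and in the lower part control replicate 1 (grey circles) lies nearest to the red symbols in most rows, as for Sncaip at an RPKM of 3.23 against 0.159 and 0.0254 in the other controls.

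The list of genes of MHC class I presentation, which loads peptides on class I molecules for display to T cells, held 7 of the called genes. Of 17 tested, 6 were called lower (Psmb8, Psmb9, Tap1, Tapbp, H2-Q4 and Nlrc5) and 1 higher (Ulbp1). Of the 17, 16 had a log2 fold change below 0 and in 12 every KO library lay below every control library, which was so for 12.4% of all tested genes. The median was −1.59, beside 0.02 for all tested genes. The medians in KO replicates 1, 2 and 3 were −0.93, −1.36 and −1.75. Without control replicate 2 or 3 none of these genes was called, and without control replicate 1 only 1 was called lower, with medians of −1.26, −1.80 and −1.56. Without KO replicate 2, 2 were called lower, with a replicate block 3, and with the prefix as a term none.

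Psmb8, a subunit of the immunoproteasome that cuts antigens, had RPKM values of 15.1, 23.3 and 10.6 in control and 0.866, 0.366 and 2.68 in KO cells (log2 fold change −3.36, SE 0.514, adjusted p = 0.0441). Psmb9, another such subunit, had 5.95, 10.5 and 3.77 in control and 0.313, 0.185 and 0.622 in KO cells (−2.97, SE 0.397, adjusted p = 0.0363). Tap1, a subunit of the transporter that carries peptides into the endoplasmic reticulum, had 13.5, 21.9 and 11.0 in control and 1.28, 0.332 and 2.16 in KO cells (−3.28, SE 0.470, adjusted p = 0.0386). The order of the KO libraries was thus the same for these genes, lowest in replicate 2 and highest in replicate 3, and so was that of the controls. Tap2, the partner of Tap1, was at 4.26, 0.419 and 3.26 in KO and at 6.12 to 13.0 in control cells and did not pass (adjusted p = 0.227). Tapbp, or tapasin, which holds class I molecules at the transporter, fell from between 106 and 149 to between 29.4 and 46.5 (−1.71, SE 0.240, adjusted p = 0.0379). Nlrc5, the transactivator of class I genes, fell from 8.06, 11.9 and 7.86 to 1.93, 1.38 and 0.486 (−2.54, SE 0.381, adjusted p = 0.0411).

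Of the class I chains in the list, H2-Q4, H2-K1, H2-D1 and B2m were lower in every KO library than in any control library, and 1 of these passed the test, while H2-M3 and H2-T23 overlapped between the groups. H2-Q4 had 27.9 to 53.3 in control and 4.49 to 10.7 in KO cells (−2.28, SE 0.367, adjusted p = 0.0553). It belongs to a family of near-identical genes between which reads can be split, so its value is uncertain. H2-Q5, a class I gene outside the list, was also called lower, at 3.685 to 7.14 in control and 0.270 to 0.684 in KO cells (−2.60, SE 0.324, adjusted p = 0.0345 by limma). The class I genes H2-K1 (134 to 290 against 29.9 to 88.2, adjusted p = 0.186) and H2-D1 (121 to 230 against 54.9 to 86.1, adjusted p = 0.112) did not pass. B2m, the light chain shared by class I molecules, was at 1693 to 2722 in control and at 924, 615 and 352 in KO cells (−1.81, SE 0.396, adjusted p = 0.106). Ulbp1, a ligand of the NKG2D receptor of natural killer cells, moved the other way, from 8.96, 9.91 and 11.52 to 32.5, 43.8 and 59.8 (2.07, SE 0.261, adjusted p = 0.0351). Its KO libraries lay above all controls, with replicate 3 highest.

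Among 29 interferon-stimulated genes 3 were called lower and 0 higher by limma, with 11 lower and 0 higher at an unadjusted p under 0.05. Over all 11803 tested genes 1124 were lower and 780 higher at that level, the background for this count and for those of the lists that follow. Isg15, a ubiquitin-like modifier, had RPKM values of 131, 114 and 94.8 in control and 16.8, 31.9 and 47.7 in KO cells (−1.91, SE 0.371, adjusted p = 0.086). Oas3, which makes the signal that activates RNase L, had 22.8, 16.8 and 10.4 in control and 1.62, 3.17 and 2.14 in KO cells (−2.58, SE 0.352, adjusted p = 0.0363). Mx1, an antiviral GTPase, was at a low 0.669 to 0.820 in control and 0.0344 to 0.0736 in KO cells. In the list 27 of 29 genes had a log2 fold change below 0, with a median of −0.73. The KO libraries parted on this list: the medians were −1.20 and −1.04 in replicates 1 and 2 and −0.18 in replicate 3. Rsad2, for instance, was at 13.3 and 14.4 in replicates 1 and 2 and at 54.9 in replicate 3, above the control range of 26.4 to 46.1, and Irgm1 was at 8.20, 15.7 and 43.7 with 18.6 to 40.0 in control. Without KO replicate 3, 10 genes of the list were called lower. Without control replicate 2 or 3 none was, and without control replicate 1 or KO replicate 2 only 1 was.

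**Figure D3:**
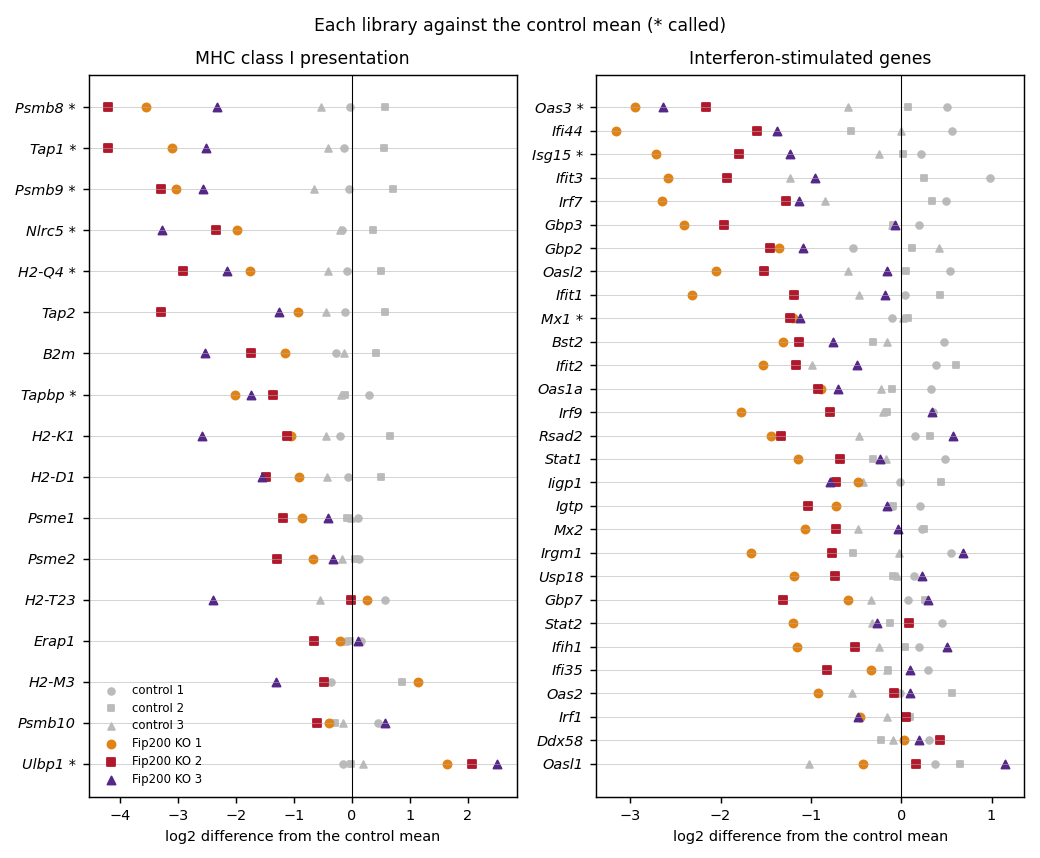
Difference in log2(RPKM + 0.5) from the control mean for each tested gene of MHC class I presentation (left) and of the interferon-stimulated list (right), with grey symbols for control, coloured symbols for Fip200 KO libraries and a star for called genes. On the left the 3 KO libraries all lie below the controls for Psmb8, Tap1 and Psmb9, and on the right KO replicate 3 (purple triangles) lies near 0 for many genes whose other KO libraries are lower.

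Cytokine and cytokine receptor genes were called in both directions. Il15, which supports natural killer and memory T cells, was at 19.1, 24.3 and 26.1 in control and at 2.95, 2.88 and 2.17 in KO cells (−2.90, SE 0.231, adjusted p = 0.00854). Il15ra, the chain that presents it, rose from between 1.04 and 2.45 to between 4.81 and 11.9 (1.86, adjusted p = 0.0997). Lifr, the receptor for leukemia inhibitory factor, was low and fell from between 0.745 and 1.70 to at most 0.124. These were the called genes among 24 of the JAK-STAT3 and IL-6 family (median −0.65, and −0.13 against control replicate 1 alone). Of 24 NF-kB feedback and TNF response genes, 3 were called lower and 0 higher by limma, with 6 lower and 0 higher at an unadjusted p under 0.05 (median −0.73, and −0.17 against control replicate 1 alone). Without any 1 of the control libraries, without KO replicate 2 or with a replicate block, 0 of them were called. Tnfaip2 was at 136 to 197 in control and 61.7 to 67.6 in KO cells (−1.38, SE 0.202, adjusted p = 0.0396), with a KO spread smaller than that of the controls. The chemokine Cx3cl1 was at 8.74 to 21.2 and 1.54 to 3.38 (−2.29, adjusted p = 0.0639), and the death receptor Fas was at 1.44 to 2.67 and 0.386 to 0.506 (−1.33, adjusted p = 0.0986).

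No gene of the autophagy machinery itself was called. Over all tested genes 1.98% were called in either direction, so a count of 0 in lists of 23 and 16 genes is near that share. None of 23 genes of the ULK and PI3-kinase initiation complexes passed by limma (2 at an unadjusted p under 0.05, both lower, median −0.12), nor did any of 16 genes of ATG8 conjugation (2, both lower, median −0.16). Ulk1, the kinase that FIP200 holds, was at 12.9 to 15.3 in control and 8.36 to 9.61 in KO cells (−0.64, adjusted p = 0.189). Wdr45, which binds PI3-phosphate on the growing membrane, was at 11.0 to 16.03 and 4.42 to 7.13 (−1.02, adjusted p = 0.150). Map1lc3a, an LC3 gene, was at 14.7 to 41.1 and 8.64 to 10.5 (−1.34, adjusted p = 0.156). Of 21 selective autophagy receptors 1 was called: Retreg1, which leads autophagy of the endoplasmic reticulum, fell from 14.94, 14.96 and 22.8 to 7.12, 3.45 and 5.89 (−1.62, SE 0.316, adjusted p = 0.0864). Sqstm1, which encodes p62, spread to either side of the controls (359 to 579), with 727, 194 and 292 in the KO libraries.

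Of 34 lysosome genes and TFEB targets 2 were called lower and 0 higher by limma, where 10 were lower and 1 higher at an unadjusted p under 0.05. Lamp1, a main protein of the lysosomal membrane, was the most abundant called gene, at 935, 1003 and 1076 in control and 321, 485 and 422 in KO cells (−1.31, SE 0.236, adjusted p = 0.0688). Npc2, which binds cholesterol in the lysosome, fell from between 117 and 197 to between 49.9 and 73.2 (−1.32, SE 0.264, adjusted p = 0.0887). In the list 26 of 34 genes had log2 fold changes below 0 and the median was −0.37, made up of −0.03, −0.47 and −0.91 in KO replicates 1, 2 and 3. The protease gene Ctsd showed the same order at 1211, 302 and 187, with 474 to 544 in control. Without KO replicate 3 the median was −0.18. Lamp1 lies on chromosome 8, whose median was below 0 in each KO library, and with chromosome medians taken out Lamp1 stood at −0.98 and Npc2, on chromosome 12, at −1.23, neither was called, and the median of the list was −0.36. Nor was either called without any 1 of the control libraries and without KO replicate 2.

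**Figure D4:**
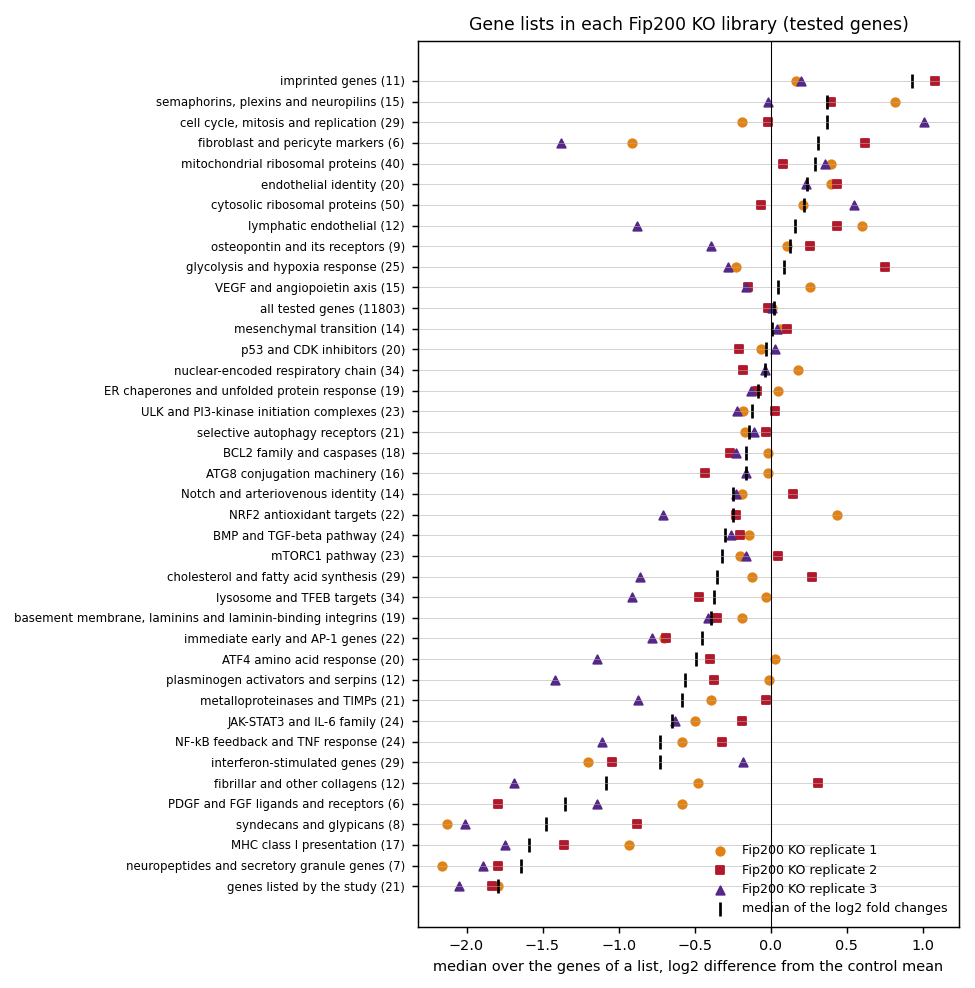
Median over the tested genes of each list (number in parentheses) of the difference in log2(RPKM + 0.5) from the control mean, with coloured symbols for the 3 Fip200 KO libraries and a black bar for the median of the log2 fold changes. All 3 libraries lie well below 0 for MHC class I presentation and for the 7 neuropeptide genes that passed the filter (of 15, whose median is −0.02), and they lie far apart for the cell cycle (−0.19, −0.02 and 1.01) and the ATF4 response (0.03, −0.40 and −1.14).

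Several lists took opposite signs in different KO libraries, and no gene of them was called, where 1.98% of all tested genes were. The NRF2 antioxidant targets had medians of 0.44, −0.23 and −0.71 in KO replicates 1, 2 and 3. Nqo1, a quinone reductase, stood at 494, 244 and 53.2 with 312 to 377 in control, and Slc7a11, the cystine transporter, at 59.6, 8.43 and 4.69 with 39.5 to 51.1. The amino acid response genes driven by ATF4 had medians of 0.03, −0.40 and −1.14, with Asns, which makes asparagine, at 194, 78.8 and 41.5 and 73.8 to 126 in control. The 29 cell cycle genes were near control in replicates 1 and 2 (−0.19 and −0.02) and higher in replicate 3 (1.01), where Rrm2, a subunit of ribonucleotide reductase, stood at 91.2 against 10.1 and 10.2 and 9.77 to 21.4 in control. At an unadjusted p under 0.05 there were 3 lower NRF2 genes, 1 lower and 1 higher ATF4 gene and 3 higher cell cycle genes by limma. The 50 cytosolic ribosomal protein genes had medians of 0.21, −0.06 and 0.55, and glycolysis and hypoxia genes were highest in replicate 2 (0.75, against −0.23 and −0.28).

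In several vessel and matrix lists 1 or 2 genes were called. Lower were 1 of 15 VEGF and angiopoietin genes, 2 of 12 plasminogen activators and serpins and 1 of 6 PDGF and FGF genes. So were 1 of 19 basement membrane genes and 1 of 8 syndecans and glypicans. Higher was 1 of 15 semaphorins, plexins and neuropilins. Each of these shares is above the background of 1.64% for lower or 0.347% for higher calls, but rests on 1 or 2 genes. Among 12 collagens and 21 metalloproteinases and TIMPs 0 were called. Whether such lists hold more calls than the background was not tested. Of 20 endothelial identity genes, none was called by limma (1 lower and 3 higher at an unadjusted p under 0.05), with a median of 0.24 that became −0.11 without control replicate 2 and −0.27 against control replicate 1 alone. Flt1, a VEGF receptor, was called lower, at 23.3, 16.1 and 34.1 in control and 0.145, 1.12 and 6.00 in KO cells (−3.66, SE 0.779, adjusted p = 0.0995). Kdr, the main VEGF receptor of endothelium, was at 15.2 to 65.3 and 23.4 to 50.4. Plat, tissue plasminogen activator, was at 572 to 997 in control and at 140, 171 and 31.9 in KO cells (−3.09, SE 0.613, adjusted p = 0.0867). Fgfr1, a fibroblast growth factor receptor, fell evenly from 97.1, 118 and 98.9 to 37.8, 33.1 and 31.0 (−1.61, SE 0.182, adjusted p = 0.0266). Itgb4, a laminin-binding integrin chain, fell from between 0.953 and 2.27 to at most 0.203, and the glypican Gpc2 from between 2.64 and 3.10 to 0, 0 and 0.544. Sema3e, a guidance ligand of endothelial cells, rose from between 2.63 and 4.56 to between 12.1 and 16.4 (1.91, SE 0.264, adjusted p = 0.0365).

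Spp1, the osteopontin gene, had RPKM values of 59.5, 1370 and 127 in control and 29.9, 38.0 and 53.2 in KO cells. All KO libraries were below all controls, yet control replicate 1 was near them (difference of −0.59 from the KO mean), and the log2 fold change of −2.46 (SE 1.04) did not pass (adjusted p = 0.305). Without control replicate 2 it was −1.14 and without control replicate 1 it was −3.39, neither past the test. Of the 9 tested osteopontin receptor and ligand genes, Itga4 was called, and it rose from between 1.13 and 2.60 to between 6.25 and 14.3 (2.26, SE 0.393, adjusted p = 0.0671). Of 30 genes in the table that the study lists as decreased, 21 passed the filter and were tested, all 21 had a log2 fold change below 0 and 5 were called lower (Fas, Flt1, Il15, Itgb4 and Cx3cl1), with a median of −1.79, and of −1.05 against control replicate 1 alone. Without control replicate 2 or 3, 0 of the 18 then tested were called by limma, 2 of 18 without control replicate 1, 1 without KO replicate 1 or 2, and 11 without KO replicate 3. The study chose them on these samples, so they are no independent evidence of the direction.

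The leading higher genes were lowest in control replicates 2 and 3. Sncaip, or synphilin-1, went from 3.23, 0.159 and 0.0254 to 13.0, 17.2 and 21.7 (a log2 fold change of 4.0, SE 0.711, adjusted p = 0.0675). Fhl1, a LIM domain protein, went from 2.87, 0.400 and 0.188 to 20.5, 13.3 and 7.11, and F8, coagulation factor VIII, from 1.93, 0.380 and 0.297 to 10.3, 4.30 and 19.3. In Sncaip, Fhl1 and F8 alike, control replicate 1 was the highest control. Tgm2, tissue transglutaminase, rose without that pattern, from 2.29, 4.45 and 2.13 to 22.9, 26.5 and 16.9 (2.75, SE 0.320, adjusted p = 0.0272, the smallest among the higher genes). The growth factor gene Igf1 went from at most 0.570 to 2.09, 2.35 and 4.65. Among abundant genes Myh9, the heavy chain of nonmuscle myosin, rose from between 80.3 and 104 to between 161 and 253 (1.19, adjusted p = 0.086), and Man1a, a Golgi mannosidase, from between 25.3 and 44.0 to between 68.0 and 92.2. Erdr1, at 16.9 to 61.0 in control and 118 to 322 in KO cells, lies in a repeated region near the end of X, and its counts are uncertain.

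The KO libraries also differed from control chromosome by chromosome. Over 8804 genes that reached an RPKM of 2 in all 6 libraries, the median of each chromosome was taken relative to the control mean and to the library's overall median, with chromosomes matched by gene ID to RefSeq GRCm38.p6. No control library exceeded 0.17 in size on any of 20 chromosomes. Chromosome 8 stood at −0.51, −0.42 and −0.14 in KO replicates 1, 2 and 3, and X at −0.32, −0.52 and −0.21. Chromosome 3 (−0.31, −0.20 and −0.32) and chromosome 13 (−0.29, −0.24 and −0.18) were also below the control range in every KO library, chromosome 4 (0.18, 0.29 and 0.19) was above it in every one, and chromosome 9 (0.32, 0.27 and 0.04) in replicates 1 and 2. Some shifts were largest in 1 library: chromosome 10 stood at 0.76 in replicate 3 and at 0.07 and 0.24 in the others, chromosome 6 at 0.65 in replicate 1 with 0.29 and 0.07, and chromosome 12 at −0.46 in replicate 1 with −0.05 and 0.22. Chromosome 1, which holds Rb1cc1, stood at 0.11, −0.04 and 0.19. Along chromosome 10 the shift in replicate 3 was even, at 0.66, 0.84 and 0.72 in 3 consecutive parts of equal gene number. Along chromosome 8 it was not: the middle part stood at −0.90, −0.83 and −0.49, the first at −0.64, −0.36 and −0.16, and the last at −0.06, 0.06 and 0.36.

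Of the 193 called lower genes, 36 lie on chromosome 8, which is 5.56% of its 648 tested genes against 1.64% of all. Among them were Lamp1, Plat, Il15, Nlrc5, Cx3cl1, Fgfr1 and Gdf15. No gene of chromosome 8 was called higher. Chromosome 13 had 18 called lower of 452 tested (3.98%). With each library's chromosome medians subtracted, an alternative chosen after seeing the data, 136 genes were called lower and 28 higher, and 143 of these calls were among the original 234. In that fit 5 of the 6 lower genes of the MHC class I list were still called. Xist, the RNA that silences an X chromosome, had RPKM values of 12.7, 0.538 and 0.0178 in control and 53.4, 65.4 and 49.7 in KO libraries. The groups did not overlap, and the difference of 4.87 (SE 1.07) had an adjusted p of 0.106. Its controls spanned a wide range while its KO libraries were alike.

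**Figure D5:**
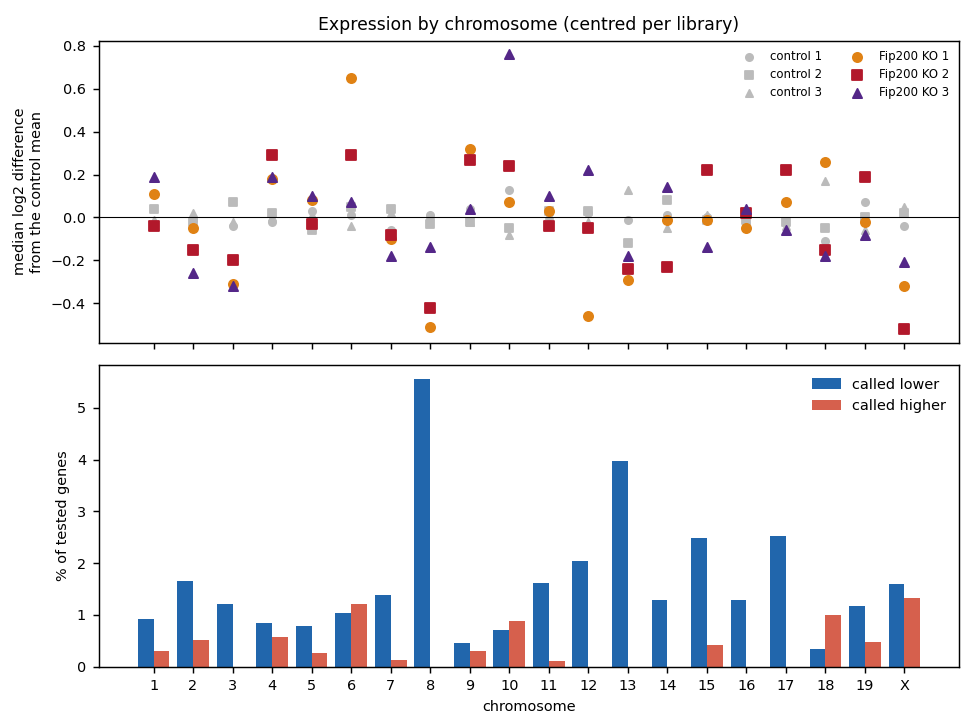
Above, the median log2 difference from the control mean for each chromosome, centred per library, with grey symbols for control and coloured symbols for Fip200 KO libraries; below, the percentage of the tested genes of each chromosome called lower (blue) or higher (red). Controls stay within 0.17 of 0, KO replicate 3 reaches 0.76 on chromosome 10, and chromosome 8 has the tallest blue bar at 5.56%.

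Fip200 KO cells were also set against Atg5 KO and Atg7 KO cells, made from the same line with sgRNAs to the later-acting genes and sequenced in 3 libraries each. The Fip200 KO libraries all carry the prefix FY, the Atg5 KO libraries JG or Yang, and the Atg7 KO libraries Yang. Prefix and genotype can therefore not be told apart in these comparisons. In a fit of all 12 libraries over 12233 genes, limma called 0 genes against Atg5 KO (0.0%) and 0 against Atg7 KO (0.0%), with 927 and 916 genes at an unadjusted p under 0.05. Nothing was thus shown to be particular to Fip200 KO. Over 59 called genes named by rule, the Fip200 KO minus Atg5 KO difference had a median of −0.18 and was below 1 in size for 49, and the Fip200 KO minus Atg7 KO difference had a median of −0.03 and was below 1 for 46. Without Fip200 KO replicate 3 the counts were 300 and 402, so the count of 0 rested on that library, while without replicate 2 there were 4 and 4.

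Single genes showed where the KO cells lay near each other or apart, with the same limit from the prefix. Lamp1 was at 476 to 574 in Atg5 KO and 330 to 484 in Atg7 KO cells, and the Fip200 KO minus Atg5 KO and Fip200 KO minus Atg7 KO differences were −0.40 (SE 0.199) and −0.02 (SE 0.199). Mme was at most 0.397 and 0.429 there, and Ulbp1 was at 30.1 to 37.2 and 29.3 to 40.4. Isg15, by contrast, was at 68.6 to 178 in Atg5 KO and 130 to 226 in Atg7 KO cells, above all Fip200 KO libraries but for no passed test (−1.80, SE 0.402, adjusted p = 0.356, and −2.53, SE 0.402, adjusted p = 0.203). Psmb8 was at 3.82 to 7.58 in Atg5 KO cells and spread from 1.72 to 30.2 in Atg7 KO cells. Spp1 was lower in both, at 5.79 to 13.9 and 6.17 to 10.9, with differences of 2.04 and 2.31 (SE 0.869) and adjusted p of 0.632 and 0.589. Rb1cc1 was at 5.81 to 6.62 in Atg5 KO and 5.88 to 6.92 in Atg7 KO cells, where Fip200 KO libraries spanned 2.06 to 6.84.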

How the data were processed

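Directional RNA-sequencing libraries of total RNA from cultured cells were compared, 3 per group. Per the study's methods, the authors aligned adapter-trimmed reads with TopHat2, counted them per transcript and tested them with edgeR; genome build and annotation are not given in the sources used here. The authors deposited RPKM per library, and means per group as a signal of reads divided by size factors. Columns of the authors' own fold changes and p-values were not used. Both units together gave back whole reads (100.0% of values within 0.01 reads), from which depth and a floor of 3 reads per library, for counting error only, were taken.

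Genes reaching an RPKM of 0.5 in 3 libraries were tested by limma 3.58.1 (R 4.3.3) on log2(RPKM + 0.5), with a mean trend and Benjamini-Hochberg adjustment, in place of a count model because the values are normalized. The script was tested on simulated data. Within the control and within the Fip200 KO group no library duplicated another. The Atg5 KO and Atg7 KO libraries were not checked for this. The study calls its KO replicates independent and its experiments in general biologically replicated; the labels do not say whether these libraries came from separate cultures, and p-values measure the spread between them. Pseudocount, filter, scaling, weights, prefix, block, read-level voom and single libraries were varied.

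Members, lists and tests were chosen with earlier results of these data known. Named genes were Rb1cc1 and Spp1, the 15 called genes that fell most and the 12 that rose most (groups not overlapping, mean RPKM of 2 in the higher group), the 5 most abundant called genes in each direction, called members of a list with up to 4 more of smallest p, and for each KO library the 5 genes farthest above and 5 farthest below the other KO libraries. Further genes, chosen after their values were seen, illustrate a list or marker set.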

Additional observations from a re-analysis of the deposited data

How the results depend on the processing

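The highest library total was 1.25 times the lowest; how far depth limits the calls was not tested. The counts of lower and higher genes (193 and 41) were within 1.5 times under pseudocounts of 0.1 and 1, a filter at an RPKM of 1, median-of-ratios or TPM scaling, no mean trend and chromosome medians subtracted. They were 770 and 371 with library weights, 450 and 158 in 1 fit of all 12 libraries, and 0 and 0 with FY or JG as a term (533 genes at an unadjusted p under 0.05). With FY libraries alone, chosen after seeing the data, they were also 0 and 0 (250 genes), but this sets 1 control library, assumed to vary like the KO libraries, against 3 and says nothing about stability. Higher genes numbered 16 with no filter and 24 with voom on recovered reads. The cause was not tested. Leaving out 1 library gave 0 to 429 lower and 0 to 169 higher genes; without a control, 183 of the 234 called genes still passed the filter. Against Atg5 KO and Atg7 KO, leaving out a Fip200 KO library gave 0 to 300 and 0 to 402.

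The replicate numbers did not pair the samples (correlations of deviations −0.054, −0.041 and 0.044 for equal numbers). With a replicate block 80 genes were lower and 13 higher, and 0 were called against either other KO. Of the 59 called genes named by rule, 58 kept their call without Fip200 KO replicate 3, 16 without replicate 2 and 0 without control replicate 2 or 3. Without either of these controls 49 of the 59 were tested, and the rest could not be called. Rb1cc1 passed under no alternative (−1.06 to −0.30 over the libraries left out).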
